A study of Mus musculus with 109 samples.

Results

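The 10 genes described here are Hacd4, Tmem44, Cryba4, Crybb1, Ly6g6e, Lst1, Ccr6, Upk1b, Eps8l1 and Duoxa1, out of 12798 genes in the table that holds the Il10ra mutants. They were chosen because their values were low in microglia of Il10ra mutants after lipopolysaccharide (LPS), so their levels in those libraries are given as a description with no test. All 10 had a row in each of the 4 deposited RNA tables, and all 10 passed the filter on low values in the 3 tables that were tested. Calling the 10 genes absent would go against the values of 4 of them: Cryba4, Crybb1, Lst1 and Upk1b were low but above 5 normalised reads in every Il10ra mutant library at 48 h. For Upk1b, Duoxa1 and Ccr6 the libraries of LPS-treated controls overlapped those of the mutants at that time.

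RNA came from microglia of the mouse brain, isolated by cell sorting with CD45 and CD11b as surface markers. Mice were untreated or had received LPS into the peritoneum at 2.5 mg/kg. Control mice had the genotype IL10Rafl/fl, a floxed Il10ra gene without Cre, with 6 libraries untreated, 6 at 6 h, 4 at 24 h, 6 at 48 h and 4 at 7 days. Il10ra mutants had the genotype CX3CR1-CreER:IL10Rafl/fl with 9 libraries untreated, 7 at 6 h, 5 at 24 h and 5 at 48 h. Doubly floxed controls, IL10Rafl/fl:TNFfl/fl without Cre, had 6 libraries untreated, 5 at 6 h and 6 at 48 h. Double mutants, CX3CR1-CreER:IL10Rafl/fl:TNFfl/fl, had 5 libraries untreated, 6 at 6 h and 4 at 48 h, and untreated wild-type C57BL/6 mice had 4. The floxed Il10ra allele was thus shared by all groups but C57BL/6, and mutants differed from their controls by the Cre as well. The Cx3cr1 locus drives CreER in microglia and in other macrophages, and the mutants carry CreER at that locus where their controls do not. Ages were not given in the labels. Nothing in the labels states which libraries came from separate mice, so p-values measure only the spread between libraries, which may be partly technical.

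LPS is a cell wall component of Gram-negative bacteria that is sensed by Toll-like receptors and starts an inflammatory programme in macrophages and microglia. Interleukin 10 is an anti-inflammatory cytokine, and Il10ra encodes the ligand-binding chain of its receptor, which signals through STAT3 and restrains the expression of inflammatory genes. Tnf encodes a central cytokine of that inflammatory programme. Resting microglia express a set of genes, often called homeostatic, that is reduced when the cells are activated.

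The members do not form a single pathway. Hacd4 encodes a dehydratase of the cycle that elongates very long chain fatty acids. Duoxa1 encodes the maturation factor of the dual oxidase DUOX1, an enzyme that makes hydrogen peroxide. Cryba4 and Crybb1 encode beta-crystallins, structural proteins best known from the eye lens. Eps8l1 encodes a relative of EPS8, which regulates actin. Upk1b encodes a tetraspanin first described in the bladder urothelium, Tmem44 a multi-pass membrane protein, and Ccr6 the receptor of the chemokine CCL20. Lst1, a leukocyte gene, and Ly6g6e, of the Ly6 superfamily, lie in the class III region of the major histocompatibility complex. Lst1 (chr17:35185095-35188440 in RefSeq, GRCm38.p6) lies 10926 bp from Tnf, and Ly6g6e (chr17:35076868-35078804) lies 120562 bp from it.

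Cryba4 and Crybb1 are neighbours, and the sequences before their start sites are shown because both genes were low in the same libraries. In RefSeq (GRCm38.p6) Cryba4 spans chr5:112246492-112263625 on the minus strand and Crybb1 spans chr5:112254563-112269585 on the plus strand. The annotated spans overlap by 9063 bp, and no source used here says whether the authors counted by strand, so reads in the overlap could not be assigned with certainty. The start sites of the RefSeq promoter entries lie 3302 bp apart and point away from each other. The 250 bases before each start follow, 5′ to 3′ on the strand of the gene, with the MAF half-site TGCTGAC in capitals. The first window is chr5:112252519-112252768 on the minus strand and the second chr5:112255570-112255819 on the plus strand, and both lie inside the longer annotated gene spans.
Cryba4: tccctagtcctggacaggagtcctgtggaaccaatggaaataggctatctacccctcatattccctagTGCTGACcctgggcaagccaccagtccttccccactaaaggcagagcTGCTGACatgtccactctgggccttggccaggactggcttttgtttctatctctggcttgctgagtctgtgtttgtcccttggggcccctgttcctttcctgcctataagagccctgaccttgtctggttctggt
Crybb1: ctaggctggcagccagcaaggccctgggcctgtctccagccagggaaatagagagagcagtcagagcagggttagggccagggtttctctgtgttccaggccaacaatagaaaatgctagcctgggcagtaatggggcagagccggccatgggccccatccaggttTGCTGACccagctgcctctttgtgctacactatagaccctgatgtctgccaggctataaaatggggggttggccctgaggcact
The half-site began 182 and 135 bp before the Cryba4 start and 84 bp before the Crybb1 start. Searched on both strands, it was found in 3.81% of 32851 windows of this length. RefSeq entries were matched for 7 of the 10 members, as 10 windows (Upk1b, Ly6g6e and Lst1 had none), and the half-site was in 3 of the 7 genes, the third being Ccr6. The other sequences searched on both strands were the AP-1 site TGANTCA (0 of the 7 genes, 6.75% of all windows), the PU.1 site GAGGAAGT (0 of 7, 2.44%), the NF-kB site GGGANTTCC (Ccr6, 1.43%), the STAT site TTCNNNGAA (Ccr6, 7.02%) and TATAAA (Crybb1 at 30 bp before the start, 12.4%). These matches are a description of letters, chosen after the sequences had been seen.

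The libraries held from 540642 to 2489084 reads. Values are normalised reads as deposited, each table was normalised on its own, and differences are on the log2(value + 1) scale ± standard error (SE). Il10ra fell from 541 ± 103 (SD, n = 6) in untreated controls to 63.1 ± 33.2 (SD, n = 9) in untreated Il10ra mutants (log2 -3.25 ± 0.25, limma adjusted p = 3.69e-13). In untreated double mutants Il10ra was at 27.0 against 483 in doubly floxed controls (log2 -4.16 ± 0.27, limma adjusted p = 4.26e-14). Tnf at 6 h was at 10.9 in double mutants against 399 in their controls (log2 -5.66 ± 0.42, limma adjusted p = 2.85e-12). All 9 microglial markers were above 0 in each group, and their sum ran from 27439 to 29423 in untreated controls.

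In untreated microglia no member was called between Il10ra mutants and controls. None of the 10 passed an adjusted p under 0.05 with limma, and 0 had an unadjusted p under 0.05, against 249 of 11555 genes. The only gene called was Il10ra itself, which is 0.00865% of the genes tested. Crybb1 ran from 1100 to 2157 with a median of 1438 in 6 untreated controls and from 1302 to 2509 with a median of 1584 in 9 mutants. Lst1 ran from 269 to 476 (median 321) in controls and from 246 to 427 (median 350.2) in mutants. The libraries of the genotypes overlapped for all 10 members, while those of 0.0433% of genes lay apart downwards. The widest interval was that of Eps8l1, at log2 -0.62 with a 95% interval from -1.53 to 0.30, and this difference was log2 0.26 within one experiment and -0.63 within another.

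Eps8l1 and Ccr6 were the most uneven of the 10 among untreated libraries, as the plot of untreated levels shows. Eps8l1 ran from 9.15 to 121 in the 9 untreated Il10ra mutants and from 37.1 to 103 in the 6 controls. In the double mutant table the 6 doubly floxed controls had 6.75, 2.71, 54.9, 1.69, 115 and 61.0 normalised reads of Eps8l1, and the 5 double mutants had 5.63, 90.9, 70.2, 75.0 and 0. High and low libraries were present in both experiments of that table. Ccr6 ran from 2.30 to 12.1 in untreated controls and from 2.67 to 15.4 in untreated Il10ra mutants, and was at 4.71, 11.2, 6.91 and 7.00 in the 4 C57BL/6 libraries. Untreated doubly floxed controls had 159, 199, 186, 337, 5.65 and 199 normalised reads of Ccr6. Untreated double mutants had 153, 345, 448, 11.3 and 64.4. In both groups most libraries stood far above the range of the other genotypes, and replicate 5 of the doubly floxed controls and replicate 4 of the double mutants stood inside it. The column name of this double mutant replicate ends in the word mistake, while its title gives an untreated double mutant. It was kept, and had 24.0 normalised reads of Il10ra and 0 of Tnf. Between doubly floxed controls and double mutants 0 of 10 members were called in untreated microglia, 0 had an unadjusted p under 0.05 where 1077 genes did, and 0.0254% of all genes were called. These levels come from separately normalised tables and separate experiments, so genotype and experiment cannot be told apart. Of 8 lymphocyte markers 7 were at 0 or without a row in the double mutant table, and the remaining one, Cd79b, ran from 48.9 to 81.6 in untreated doubly floxed controls.

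**Figure D1:**
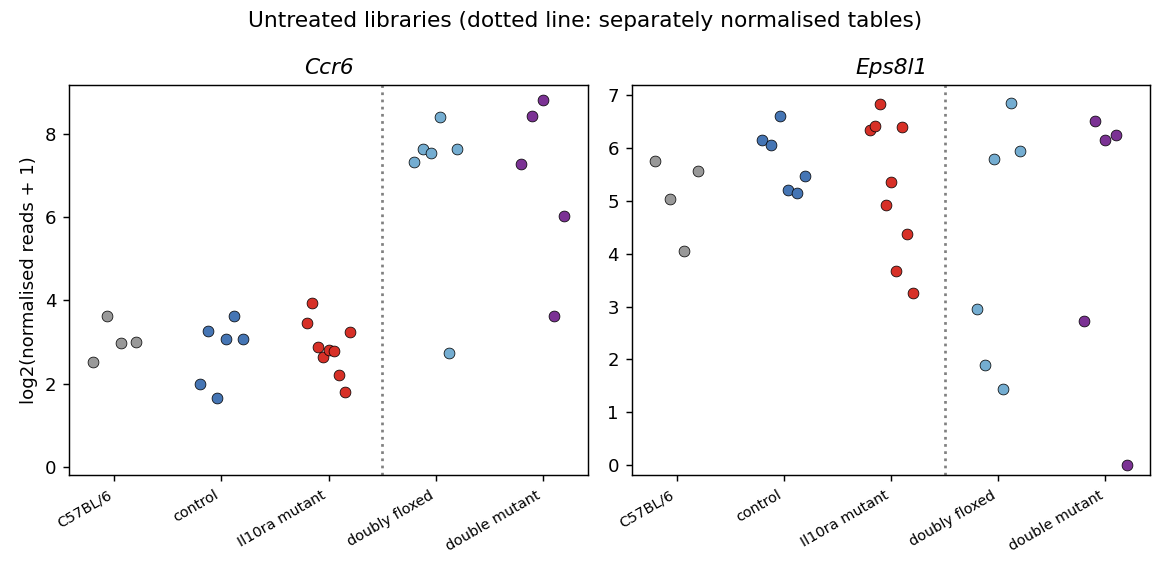
Untreated libraries of Ccr6 and Eps8l1, 1 point per library, as log2(normalised reads + 1), by genotype, with a dotted line between separately normalised tables. Ccr6 was at 159 to 337 normalised reads in 5 of the 6 doubly floxed controls and at 2.30 to 12.1 in the singly floxed controls, and Eps8l1 spread from 1.69 to 115 among doubly floxed controls.

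Untreated C57BL/6 microglia formed an experiment of their own and were not tested. Duoxa1 was at 8.25, 9.37, 6.91 and 7.00 normalised reads there and ran from 16.5 to 22.8 in untreated floxed controls of the same table. All 4 C57BL/6 libraries were below all 6 controls for this gene, which was so for none of the other 9 members and for 3.74% of all genes. Upk1b was at 107.2, 75.0, 77.7 and 98.0 against 97.7 to 224 in the controls. Genotype and experiment cannot be told apart in this contrast.

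At 48 h after LPS, Il10ra mutants had the lowest mean of Hacd4, Tmem44, Cryba4, Crybb1, Lst1, Eps8l1 and Ly6g6e, and for these 7 genes each of the 5 mutant libraries was below each of the 6 controls of that time. Such a complete separation downwards held for 11.8% of the 11555 genes tested. Since these values chose the members, nothing is read from that count. The fitted difference ran from log2 -4.30 to -0.26 with a median of -3.28, against 0.01 over all genes tested. In bulk samples fewer cells of a type and less RNA per cell cannot be told apart.

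Hacd4 was at 2.04, 1.07, 1.60, 0 and 1.52 normalised reads in the 5 Il10ra mutants at 48 h. The 6 controls at that time ran from 12.0 to 42.2 with a median of 21.5. No mutant library came near the lowest control, and the fitted difference was log2 -3.21 ± 0.53. Duoxa1, the other enzyme-related member, was at 1.02, 0, 0.802, 0.887 and 0 in the mutants. It ran from 0 to 2.50 with a median of 0.798 in the controls, so the groups overlapped. Only 3 reads of Duoxa1 were recovered over the 5 mutant libraries, and the pooled rate of reads over untreated mutants was 38.7 times as high, with an exact Poisson interval from 13 to 189.6, which covers counting error only.

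The beta-crystallin genes stayed clearly detected. Cryba4 was at 53.0, 14.9, 21.7, 10.7 and 12.1 in the mutants, and ran from 219.8 to 342.9 with a median of 233.5 in the controls (log2 -3.25 ± 0.32). Crybb1 was at 135, 27.2, 73.8, 40.8 and 30.3 in the mutants, and ran from 364 to 1151 with a median of 634 in the controls (log2 -3.31 ± 0.38). Mutant replicate 1 was the highest for both genes and for 6 of the 10 members, and was still below every control for both crystallins.

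Among the genes of the class III region, Ly6g6e was at 2.04, 0, 0, 0 and 0 in the mutants and ran from 18.1 to 35.8 with a median of 28.9 in the controls. Only 2 reads were recovered in the 5 mutant libraries, and the pooled rate of reads over the controls was 91.5 times that over the mutants, with an exact Poisson interval from 25.0 to 761. Lst1 was at 16.3, 10.7, 18.4, 11.5 and 13.6 in the mutants and ran from 115.8 to 256 with a median of 181 in the controls (log2 -3.52 ± 0.31). Their neighbour Tnf went the other way, at 461 to 2333 in the mutants and 79.9 to 254 in the controls. Lst1 libraries of the mutants lay close together and far under the controls, while Ly6g6e was at or near the limit of detection.

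The remaining members encode membrane and actin-related proteins. Tmem44 was at 4.07, 3.74, 4.01, 1.77 and 0.758 in the mutants and ran from 22.1 to 96.3 with a median of 53.3 in the controls (log2 -3.41 ± 0.37). Eps8l1 was at 2.04, 1.07, 1.60, 3.55 and 3.03 and ran from 18.3 to 34.1 with a median of 24.2 in the controls (log2 -3.32 ± 0.59). Neither gene overlapped between genotypes at 48 h. Upk1b was at 13.2, 9.07, 9.63, 6.21 and 15.2 in the mutants and ran from 5.52 to 22.9 with a median of 15.05 in the controls (log2 -0.36 ± 0.35). Ccr6 was at 4.07, 0.534, 0.802, 5.32 and 0.758 in the mutants and ran from 0.752 to 3.67 with a median of 2.33 in the controls (log2 -0.26 ± 0.51). Mutant and control libraries were intermixed for both of these genes.

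**Figure D2:**
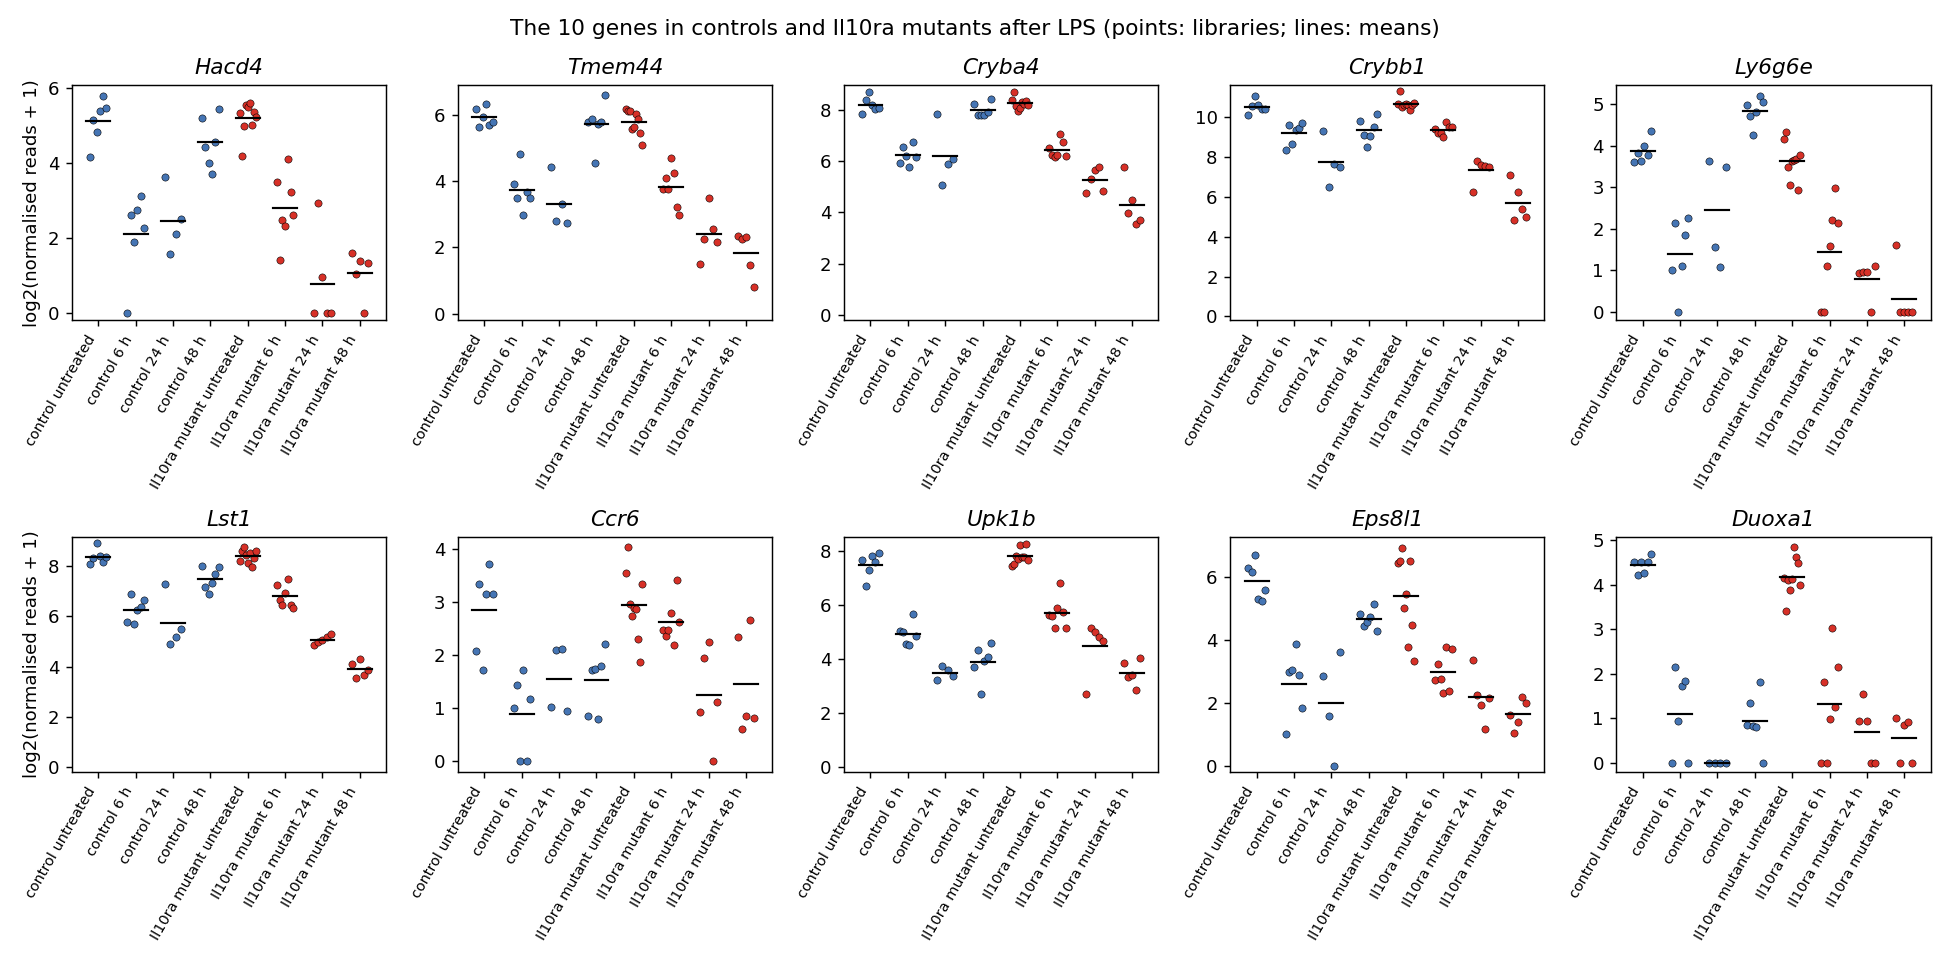
Values of the 10 genes in controls (blue) and Il10ra mutants (red), untreated and 6, 24 and 48 h after LPS, 1 point per library as log2(normalised reads + 1), with lines at the means. At 48 h the mutants lay below all controls for 7 genes and overlapped them for Ccr6, Upk1b and Duoxa1.

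The 5 mutant libraries at 48 h came from 2 experiments. Replicates 1 to 3 were prepared with the 6 controls and replicates 4 and 5 with the double mutants, so the fitted differences from the singly floxed controls rest on the first 3. The values of replicates 4 and 5 lay within or below the range of the first 3 for Hacd4, Tmem44, Cryba4, Crybb1, Ly6g6e, Lst1 and Duoxa1. For Ccr6, Upk1b and Eps8l1 either or both lay above it. The summed level of 9 microglial markers ran from 5741 to 9563 with a median of 6189 in the mutants at 48 h and from 16251 to 20153 with a median of 18921 in the controls. Of 9 neutrophil markers 8 were above 0 in the mutants (Ly6g was at 0 or had no row), summing to 27.8 to 1304 with a median of 336 against 26.6 to 240 with a median of 82.4 in the controls. Monocyte markers (8 of 8 above 0) summed to 51.8 to 213 in the mutants and 82.5 to 226 in the controls. Border macrophage markers (7 of 8 above 0, without Lyve1) summed to 10.7 to 28.5 and 62.3 to 122.1. The part of these other cell types in the low values was not tested. In a list of 22 homeostatic microglia genes, 20 had a fitted difference below 0, with a median of log2 -1.05, beside -3.28 for the 10 members. The members were chosen for low values in these libraries, so nothing is read from the gap between the medians.

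At 6 h the mutants were not lower than controls for any member. The fitted differences ran from log2 0.07 to 1.72 with a median of 0.30, and the libraries overlapped for 9 members (0.303% of genes lay apart downwards). Ccr6 was the exception, from 3.60 to 9.72 with a median of 4.58 in 7 mutants and from 0 to 2.29 with a median of 1.14 in 6 controls. All 7 mutant libraries were above all 6 controls for Ccr6, as was so for 0.173% of the genes tested. This contrast belongs to the data the members were chosen from, and no test is given. At 24 h all 10 members overlapped between genotypes, with fitted differences from log2 -1.87 to 0.86 and a median of -0.57. For Eps8l1 the difference at 24 h was log2 -1.86 within one experiment (3 mutants against 1 control) and 1.34 within another (2 against 3). Complete separation downwards held for 1.37% of all genes at 24 h.

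Hacd4 at 24 h was at 0, 6.66, 0.938, 0 and 0 in the mutants and Ly6g6e at 0.920, 0.951, 0.938, 0 and 1.16. Cryba4 was at 25.8, 39.0, 48.8, 53.96 and 27.9 and Lst1 at 27.6, 30.4, 31.9, 35.6 and 38.4. Upk1b was at 5.52, 34.3, 31.0, 27.0 and 24.4, with replicate 1 lowest for this gene and for 6 members in all. Relative to untreated mutants, the 48 h mean was 3.36% for Hacd4, 3.71% for Crybb1, 3.41% for Ly6g6e, 4.17% for Lst1, 4.01% for Eps8l1, 4.72% for Upk1b, 5.18% for Tmem44 and 7.31% for Cryba4. Ccr6 stood apart at 30.8% of a low untreated level. Hacd4, Tmem44, Cryba4, Crybb1, Ly6g6e, Lst1 and Eps8l1 had their lowest group mean in the mutants at 48 h and the next lowest in the mutants at 24 h. The mutant libraries of these 2 times overlapped for each of these genes but Lst1, which was lower in every library at 48 h, as was so for 0.952% of all genes. No experiment holds mutants of both times, so time and experiment cannot be told apart. The members were also chosen from these libraries, and no test is given.

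The control libraries were in view when the members were chosen, so the counts below are set beside the share of all genes and are no independent evidence. All 10 genes fell in controls at 6 h. The 10 of 10 called lower compare with 21.1% of the 11103 genes tested, and the median difference was log2 -2.24 against -0.05 over all genes. For 9 members each of the 6 libraries at 6 h was below each of the 6 untreated ones, which held for 13.1% of all genes. Ccr6 was the member whose libraries overlapped. It passed the filter in this table only through its untreated libraries, 4 of which were at 5 or more, so its direction carries no weight, and 9 of the calls are left without it. Duoxa1 reached 5 only in untreated and day 7 libraries. Eps8l1 ran from 40.5 to 112.1 with a median of 63.4 in untreated controls and from 1.12 to 15.1 with a median of 7.31 at 6 h (log2 -4.32 ± 0.53, limma adjusted p = 2.01e-07). Duoxa1 ran from 19.2 to 26.6 (median 23.6) and from 0 to 3.75 (median 1.76), a difference of log2 -3.41 ± 0.52 (limma adjusted p = 4.54e-06). No library at 6 h reached the untreated range for either gene.

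Hacd4 ran from 18.3 to 59.6 with a median of 41.1 in untreated controls and from 0 to 8.55 with a median of 4.91 at 6 h (log2 -3.05 ± 0.52, limma adjusted p = 2.56e-05). Lst1 ran from 293 to 517 with a median of 349 and from 55.7 to 127.5 with a median of 86.4 (log2 -2.20 ± 0.38, limma adjusted p = 3.32e-05). The beta-crystallins fell by less than Hacd4 on this scale. Cryba4 ran from 248 to 446 with a median of 305 untreated and from 59.1 to 118 with a median of 79.1 at 6 h (log2 -2.02 ± 0.37, limma adjusted p = 5.46e-05). Crybb1 ran from 1195 to 2341 with a median of 1566 and from 359 to 932 with a median of 740.2 (log2 -1.52 ± 0.42, limma adjusted p = 0.00467). Both were clearly present at 6 h in every control library. The fall of Ccr6 (log2 -1.45 ± 0.55, limma adjusted p = 0.034) was lost, with an adjusted p from 0.0553 to 0.227 without untreated replicate 2 or without replicate 1 or 3 at 6 h. Within the experiment that holds 3 untreated and 3 libraries at 6 h, Ccr6 had log2 -1.61 and a limma adjusted p of 0.081.

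At 24 h 9 of the 10 members were lower than in untreated controls, against 15% of all genes, with a median of log2 -2.61 against 0.01. For 8 members all 4 libraries were below all untreated ones, as for 10.4% of genes. Ccr6 was the member that did not pass, at 3.57, 3.63, 1.12 and 1.02 normalised reads (log2 -0.81 ± 0.55, limma adjusted p = 0.286). Duoxa1 was at 0 in all 4 libraries, at least 31.0-fold lower than its untreated mean of 22.7 when 3 reads over the group are taken as the floor. Upk1b was at 13.6, 12.1, 8.98 and 10.2 against an untreated range from 113.4 to 261 (log2 -3.75 ± 0.34, limma adjusted p = 3.35e-09). Replicate 3 was the highest of the 4 libraries for 7 of the 10 members. Cryba4, for example, was at 35.0, 62.9, 248 and 72.4, and replicate 3 lay just under the lowest untreated library, at 248. Hacd4 was at 2.14, 3.63, 12.3 and 5.10 and Crybb1 at 97.2, 219, 698 and 194. Ly6g6e was at 2.14, 1.21, 12.3 and 11.2 (log2 -1.50 ± 0.50, limma adjusted p = 0.0223), and its call was lost within 1 experiment (adjusted p = 0.147) and without any of untreated replicate 2 or 3 or replicate 1 or 2 at 24 h (adjusted p from 0.0505 to 0.135).

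By 48 h the members had parted in the controls, as the plot of differences from untreated shows. Crybb1, Ccr6, Upk1b and Duoxa1 were called lower, 4 of 10 against 7.9% of all genes, and 0 were called higher, against 11.1%. Ccr6 passed the filter only through its untreated libraries, so its call carries no weight, and Crybb1, Upk1b and Duoxa1 are left without it. Duoxa1 reached the filter only in untreated and day 7 libraries. The libraries of Lst1, Upk1b, Eps8l1 and Duoxa1 were all below the untreated ones, 4 of 10 against 6.38% of genes. Upk1b ran from 5.98 to 25.0 with a median of 16.2, still below all untreated libraries (log2 -3.90 ± 0.31, limma adjusted p = 2.34e-10). Duoxa1 ran from 0 to 2.70 with a median of 0.865 (log2 -3.60 ± 0.47, limma adjusted p = 1.54e-06). All 6 libraries lay below the untreated range for both genes. Crybb1 ran from 395 to 1253 with a median of 687 (log2 -1.14 ± 0.38, limma adjusted p = 0.0357). Its call was lost without any of untreated replicates 4, 5 and 6 or replicates 2, 3 and 4 at 48 h (adjusted p from 0.059 to 0.127). That of Ccr6 (log2 -1.85 ± 0.49, limma adjusted p = 0.00791) was lost without untreated replicate 5 (adjusted p = 0.0595).

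Tmem44, Cryba4 and Ly6g6e overlapped their untreated range in controls at 48 h. Tmem44 ran from 23.9 to 104.8 with a median of 57.7, against 52.5 to 85.8 untreated (log2 -0.22 ± 0.34, limma adjusted p = 0.703). Cryba4 ran from 238 to 373 with a median of 252, against 248 to 446 (log2 -0.11 ± 0.33, limma adjusted p = 0.851). Ly6g6e ran from 19.7 to 38.7 with a median of 31.2, against 12.2 to 21.1 (log2 0.78 ± 0.45, limma adjusted p = 0.232). For Ly6g6e 5 of the 6 libraries at 48 h lay above its untreated range. Within the experiment that holds the 6 libraries at 48 h and 3 untreated controls, 8 members were called, 7 lower and Ly6g6e higher. Over all genes, 3106 of 11103 were called within that experiment, against 2108 in the main fit. Ccr6 is among the 7 and again carries no weight. The members added within that experiment were Hacd4 at log2 -1.01, Lst1 at -0.80, Eps8l1 at -0.73 and Ly6g6e at 0.78. The fitted values at 48 h are the same as those within that experiment, since only it holds libraries of both groups, and the 6 h and 24 h values likewise rest on the 3 untreated controls of another one. The fitted values at 48 h thus share no untreated library with those at 6 h and 24 h. Counts of libraries that lay apart use all 6 untreated controls at each time.

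**Figure D3:**
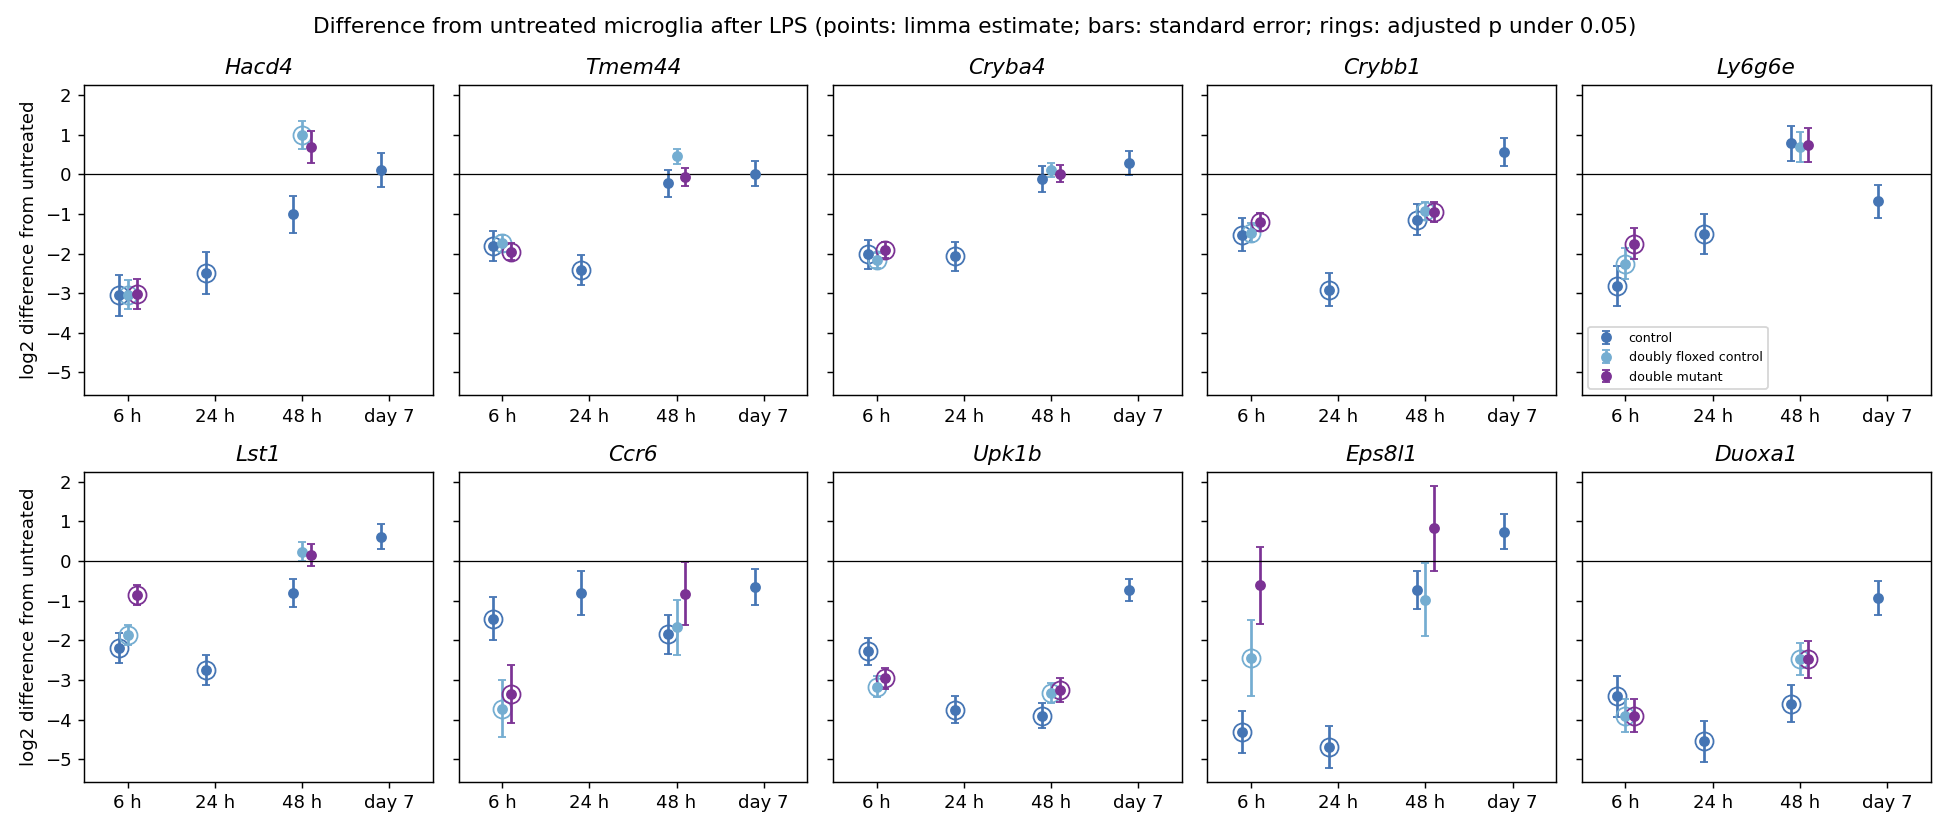
Log2 difference from untreated microglia of the same genotype at each time after LPS, with bars of 1 SE and rings at a limma adjusted p under 0.05, for controls, doubly floxed controls and double mutants. At 48 h Upk1b and Duoxa1 remained at log2 -3.90 and -3.60 in controls while Tmem44 and Cryba4 were at -0.22 and -0.11.

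At 7 days none of the 10 was called in controls by limma, where 4.1% of all genes were called in either direction. At an unadjusted p under 0.05 there were 2 members and 1695 genes. Duoxa1 was at 9.15, 12.6, 15.8 and 9.19, all below the untreated range from 19.2 to 26.6, as was so for 2.6% of genes (log2 -0.93 ± 0.43, limma adjusted p = 0.288), and with a pseudocount of 5 it was called (log2 -0.74, adjusted p = 0.0174). Upk1b was at 74.7, 121.3, 121.5 and 179 against 113.4 to 261 (log2 -0.72 ± 0.28, limma adjusted p = 0.19). The day 7 means of both genes lay between those at 48 h and untreated. Eps8l1 was at 137, 99.1, 99.7 and 91.9 (log2 0.74 ± 0.44, limma adjusted p = 0.458), and was called by edgeR (log2 0.77, adjusted p = 0.045) and DESeq2 (adjusted p = 0.00631). The 4 libraries of day 7 were an experiment of their own, which cannot be told apart from the time. Neutrophil markers summed to 2588 to 19346 in these libraries against 6.01 to 814 in untreated controls, monocyte markers to 254 to 982 and border macrophage markers to 237 to 524, and their part in the day 7 values was not tested.

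In doubly floxed controls all 10 members were again lower at 6 h, against 21.1% of the 11800 genes tested in that table, with a median of log2 -2.34. Duoxa1 was at 0, 0.528, 0.526, 1.502 and 0 in the 5 libraries, against 13.4 to 32.5 untreated, and in this table it passed the filter only through untreated libraries. Its direction thus carries no weight in the count. Ccr6 was at 9.91, 0.528, 13.2, 13.5 and 17.5 against 5.65 to 337 untreated (log2 -3.73 ± 0.72). Only untreated replicate 5 fell among the Ccr6 values at 6 h. Eps8l1 was at 0.551, 7.39, 1.58, 12.0 and 0 against 1.69 to 115, and its call was lost without any of 6 libraries in turn (adjusted p from 0.0754 to 0.125) and within 1 experiment (adjusted p = 0.111).

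In double mutants at 6 h 9 members were lower than in untreated double mutants, against 21.5% of all genes, with a median of log2 -1.93. Duoxa1, which reached the filter only through untreated libraries, carries no weight among them. Eps8l1, the member that did not pass, ran from 9.59 to 24.7 with a median of 11.6 in 6 libraries (log2 -0.61 ± 0.97, limma adjusted p = 0.645), but was called lower by edgeR (log2 -1.83, adjusted p = 0.0384). The fall of Lst1 (log2 -0.86 ± 0.26, limma adjusted p = 0.0055) was lost within 1 experiment (log2 -0.98, adjusted p = 0.0575). Set directly against doubly floxed controls at 6 h, 0 of 10 members were called by limma, as were 0.0678% of all genes. At an unadjusted p under 0.05 there were 2 members, Lst1 and Eps8l1, and 1374 genes. Lst1 ran from 63.1 to 243 with a median of 131 in double mutants and was at 57.3, 66.5, 46.3, 119 and 83.8 in the controls (log2 0.86 ± 0.25, limma adjusted p = 0.159). DESeq2 called it (log2 0.94, adjusted p = 0.0283), and so did limma without replicate 4 of the double mutants (log2 1.05, adjusted p = 0.0474).

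The libraries of double mutants at 48 h overlapped those of their doubly floxed controls for all 10 members. None was called (limma adjusted p of 1 for each), 0 had an unadjusted p under 0.05 where 393 genes did, and 0.0169% of all genes were called. Complete separation downwards held for 0.568% of genes and upwards for 0.39%, and for 0 of the members. Hacd4 was at 29.6, 91.4, 54.1 and 54.2 in double mutants and ran from 34.5 to 107.98 with a median of 71.1 in the controls. Its difference of log2 -0.26 had a 95% interval from -1.07 to 0.55. Tmem44 was at 29.6, 72.2, 76.1 and 95.9 and ran from 55.3 to 85.6 with a median of 83.0 in the controls, an interval from -0.79 to 0.12. Replicate 1 was the lowest double mutant for both, and for 9 of the 10 members, and the other 3 lay among the controls or above them for Hacd4 and Tmem44. Without replicate 1, 0 members were called.

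Cryba4 at 48 h was at 223, 315, 430.1 and 422 in double mutants and ran from 246 to 388 with a median of 333 in their controls. The 95% interval of this difference, from log2 -0.42 to 0.40, was the narrowest of the 10. Crybb1 was at 512, 766, 1059 and 972 and ran from 407 to 1114 with a median of 891 (interval from -0.59 to 0.40). Lst1 was at 167, 323, 329 and 274 and ran from 158.3 to 390.4 with a median of 330 (interval from -0.76 to 0.33). Ly6g6e was at 15.9, 22.5, 39.5 and 28.2 and ran from 15.7 to 54.6 with a median of 17.9 (interval from -0.85 to 0.80). For Cryba4 double mutant replicate 1 lay below and replicates 3 and 4 above the control range, and for Crybb1, Lst1 and Ly6g6e all 4 lay inside it. Eps8l1 had the widest interval, from log2 -0.05 to 4.12, with 64.5, 27.2, 35.1 and 27.1 in double mutants and 0 to 39.6 in controls. A p that misses the threshold does not show that the genotypes were alike, least of all for this gene.

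In the same table the 5 Il10ra mutant libraries at 48 h were below all doubly floxed controls for 7 members and below all double mutants for 8, against 12.6% and 13.9% of all genes. The libraries are the same 5 as in the first comparison, and the members were chosen from them, so these counts are descriptions. Hacd4 was at 2.13, 1.12, 1.68, 0 and 1.58 there, and no double mutant was below 29.6 and no doubly floxed control below 34.5. The difference of double mutants from Il10ra mutants was log2 5.10 ± 0.55 for Hacd4, 4.69 ± 0.31 for Tmem44, 4.53 ± 0.28 for Cryba4 and 4.15 ± 0.37 for Lst1. Its median over the 10 members was log2 4.21 and its lowest value that of Upk1b, at 1.01 ± 0.40. Upk1b and Duoxa1 were the members whose libraries overlapped. Only the 2 Il10ra mutant libraries of the same experiment enter this fitted difference. Tnf in these groups was at 482.2 to 2439 in Il10ra mutants and 4.39 to 9.27 in double mutants. Ccr6 was in both counts of members that lay below. Its untreated mean was 181 in doubly floxed controls and 204 in double mutants. In untreated Il10ra mutants, which were normalised separately, it was 7.45. For Ccr6 the separation at 48 h thus cannot be told apart from the difference among untreated libraries.

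**Figure D4:**
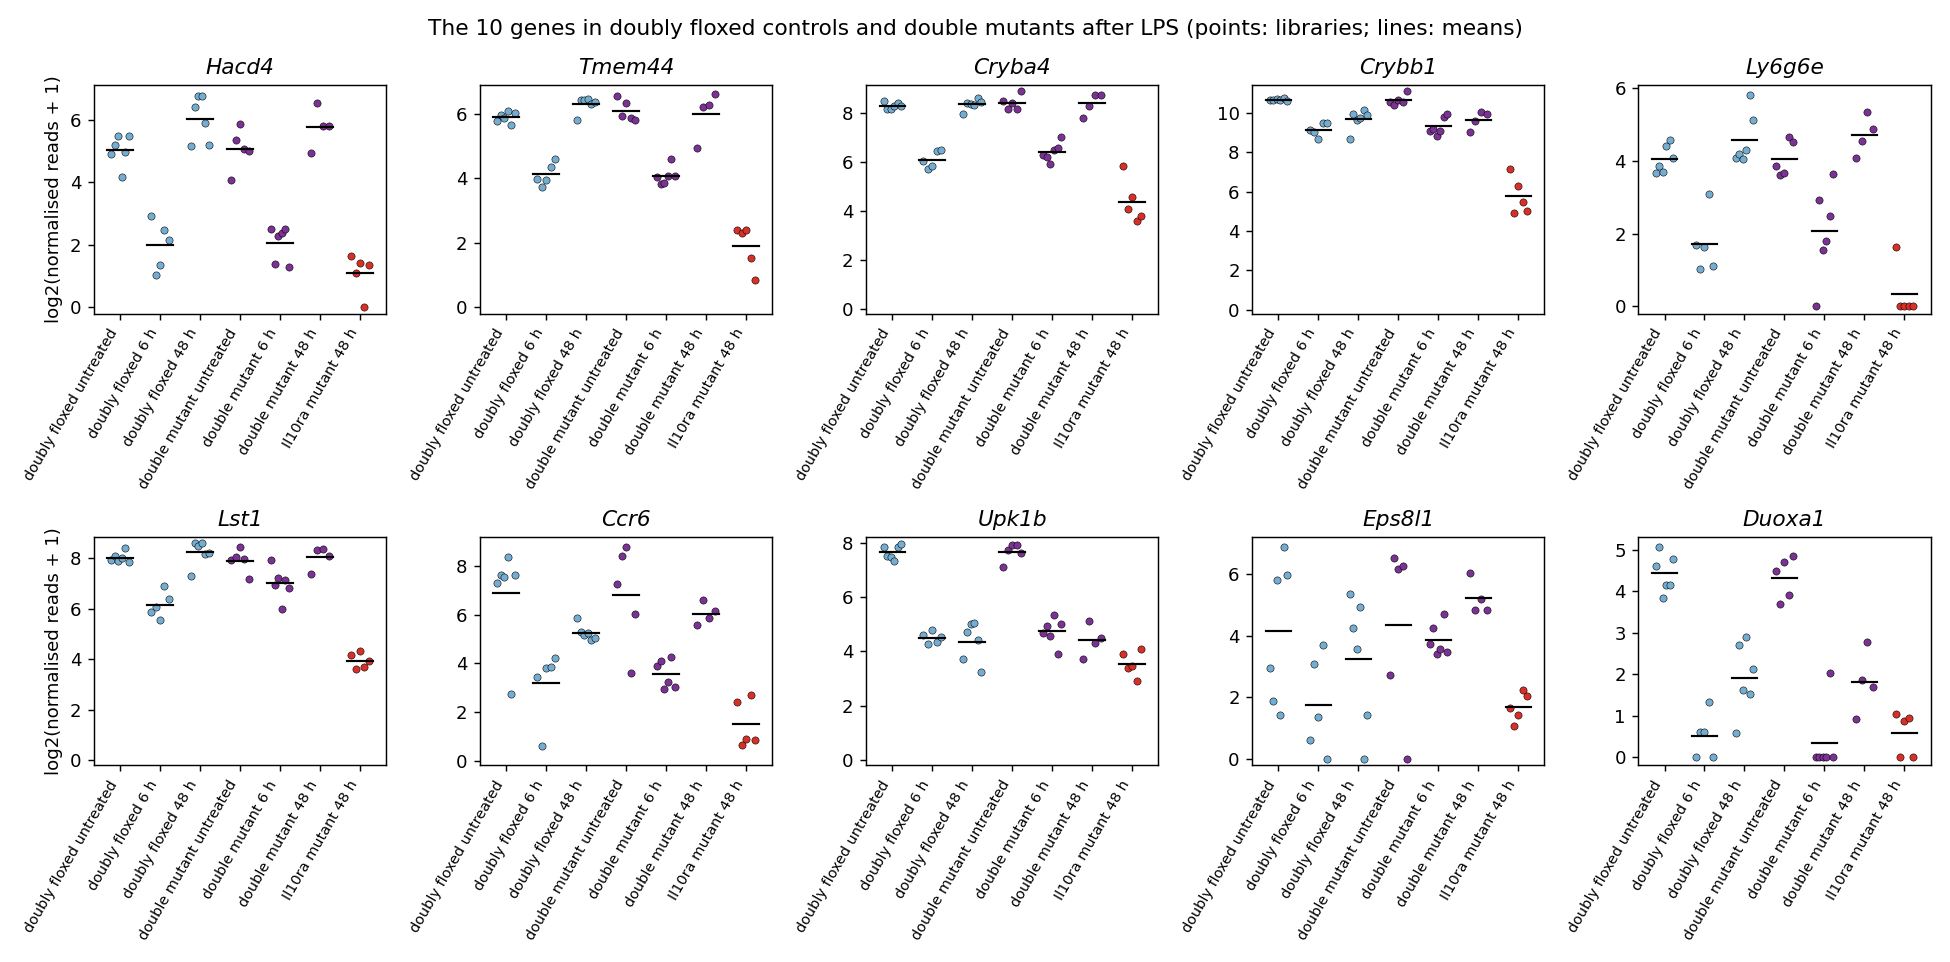
Values of the 10 genes in doubly floxed controls (light blue), double mutants (purple) and the 5 Il10ra mutants at 48 h (red) of the same table, 1 point per library as log2(normalised reads + 1), with lines at the means. At 48 h the double mutants overlapped their controls for all 10 genes, and the Il10ra mutants were below all double mutants for 8. Ccr6 is among the 8, and its untreated mean was 204 in double mutants and 7.45 in Il10ra mutants, normalised separately.

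Against untreated microglia of their own genotype, doubly floxed controls at 48 h had Crybb1, Upk1b and Duoxa1 lower (3 of 10 against 9.83% of all genes) and Hacd4 higher (1 of 10 against 13.8%). Double mutants had the same 3 lower, against 6.86% of all genes, and 0 higher, against 11.2%. Duoxa1 carries no weight in either count, since it passed the filter only through untreated libraries, and Crybb1 and Upk1b are left without it. Upk1b was at 12.4, 33.8, 19.0 and 21.4 in double mutants at 48 h against 137, 214, 239.8, 240.4 and 196 untreated (log2 -3.26 ± 0.30, limma adjusted p = 1.01e-10). Duoxa1 was at 0.884, 2.65, 5.85 and 2.26 against 21.4, 12.0, 25.3, 14.1 and 27.8 (log2 -2.48 ± 0.46, limma adjusted p = 0.000112). The rise of Hacd4 in doubly floxed controls (log2 0.99 ± 0.36, limma adjusted p = 0.0392) was lost without any of 8 of the 12 libraries in turn (adjusted p from 0.0529 to 0.106), with a pseudocount of 0.5 (0.0642) and within 1 experiment (0.173). Ccr6 did not pass in doubly floxed controls at 48 h, but did without untreated replicate 5 (log2 -2.45, limma adjusted p = 0.00194) and with edgeR (log2 -2.23, adjusted p = 0.000468), which also called it in double mutants (log2 -1.59, adjusted p = 0.0311). Eps8l1 in doubly floxed controls had log2 -4.03 within the first experiment and 0.97 within the second, and its pooled difference did not pass. The genotype difference at 48 h minus that in untreated microglia was called for 0 of 10 members and 0 genes by limma (0 of 10 members and 4.02% of genes at an unadjusted p under 0.05).

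The plot of 48 h levels relative to untreated sets the 4 genotypes side by side. For Hacd4 the 48 h mean was 3.36% of untreated in Il10ra mutants, 67.8% in controls, 216% in doubly floxed controls and 164% in double mutants. For Crybb1 it was 3.71%, 46.4%, 52.0% and 50.8% in the same order, and for Lst1 4.17%, 56.0%, 119% and 109.1%. Upk1b was low in every genotype, at 4.72%, 8.03%, 10.6% and 10.5%, and so was Duoxa1, at 3.05%, 5.08%, 15.2% and 14.5%. Ccr6 was between 21.2% and 33.1% in all 4. Ccr6, Upk1b and Duoxa1, the members whose Il10ra mutant libraries overlapped singly floxed controls at 48 h, were thus at 33.1% of untreated or less in each genotype.

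**Figure D5:**
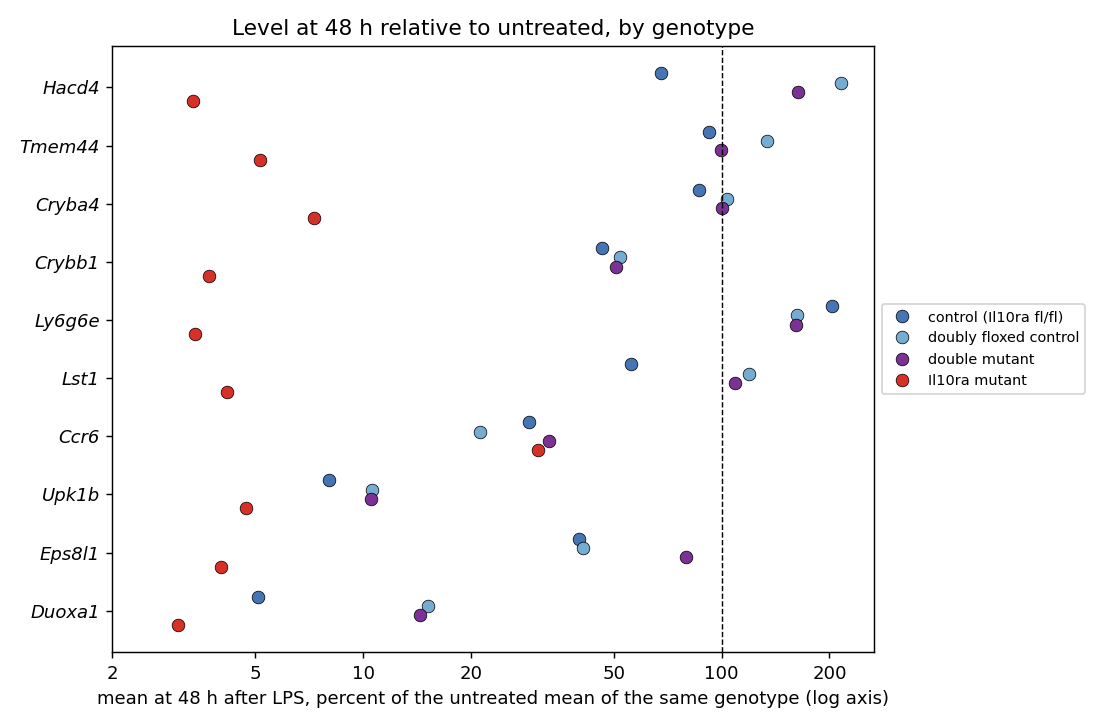
Mean at 48 h after LPS as a percent of the untreated mean of the same genotype, on a log axis, for the 10 genes in 4 genotypes; the dashed line marks 100%. Il10ra mutants were at 3.05% to 7.31% for 9 genes and at 30.8% for Ccr6.

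Genes related to the members by family, name, pathway or position moved in both directions. In controls at 6 h, 21.1% of the 11103 genes tested were called lower and 20.4% higher. Counts near these shares say nothing particular about a list. In controls at 6 h, of 11 tested genes of very long chain fatty acid elongation 2 were lower and 5 higher, among them the elongase Elovl1 (log2 0.99), the reductase Hsd17b12 (1.14) and the Hacd4 relative Hacd1 (1.77) among the higher and the desaturase Fads1 (-1.25) among the lower. Of 8 NADPH oxidase genes 1 was lower, the organiser Noxo1 (log2 -2.43), and 3 were higher, among them the catalytic subunit Cybb (2.37) and the cytosolic subunit Ncf4 (1.18). Of 6 genes that share the crystallin name, not all of them relatives of the beta-crystallins, 3 were lower and 1 higher, with Cryl1 at log2 -1.30 and Crybg1 at 2.37. Of 12 genes of the EPS8 family and its actin partners 2 were lower and 1 higher, the founding member Eps8 (log2 1.68). Tetraspanins had 3 lower, among them Cd9 (log2 -0.98), and 1 higher of 13, Cd63 (1.88). Of 7 chemokine receptor genes 2 were lower, among them Cx3cr1 (log2 -1.61), and 4 higher, among them Ccr7 (3.17). In the class III region 5 of 20 genes were lower, among them Ltb (log2 -2.29), Ly6g6d (-2.93) and Aif1 (-1.20), and 4 were higher, among them Tnf (5.11). Ly6g6d overlaps Ly6g6e in the annotation, so reads of the pair could not be separated with certainty.

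Homeostatic microglia genes were called in 1 direction. Of 22 such genes 18 were lower and 0 higher in controls at 6 h (median log2 -1.28), 17 and 0 at 24 h (-1.37) and 15 and 0 at 48 h (-0.86), beside medians of -2.24, -2.61 and -0.91 for the members. Over all genes 21.1%, 15% and 7.9% were called lower in controls at these times. In doubly floxed controls at 48 h 17 of 22 were lower, against 9.83% of all genes, and in double mutants 16, against 6.86%. Between these genotypes at 48 h 0 were called by limma.

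The genes whose profile was most like the mean profile of the members were found over the 8 group means of the Il10ra mutant table, among 7751 genes ranked by Pearson's r on the log2 scale. The closest was Golm1, a Golgi membrane protein gene, at r = 0.997, followed by Fchsd2 (0.995), Trem2, a microglial lipid receptor gene (0.994), Nav2 (0.993), Slc2a5, a fructose transporter gene (0.991), and Adgrg1, an adhesion receptor gene (0.99). Ywhah, Selenop, Bend6 and Frmd4a completed the 10 closest, and 6 genes had r above 0.99. The group means share libraries, normalisation and the selection of the members, so r is a description without a p. Slc2a5 had a mean of 596 in untreated controls, 240.2 in controls at 48 h and 20.3 in Il10ra mutants at 48 h, and Golm1 had 639, 393 and 118. In double mutants against doubly floxed controls at 48 h, none of these 10 genes was called by limma (adjusted p of 1 for each). The members' own r with that mean ran from 0.739 for Ccr6 to 0.983 for Eps8l1, with Lst1 at 0.980 and Hacd4 at 0.978.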

How the data were processed

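MARS-seq, a method that counts 3' tags, gave 89 RNA libraries of sorted mouse microglia, per the labels' protocols. The authors deposited 4 tables of normalised read signal per gene, each normalised on its own, and mm10 is named per the submitters' processing notes. For aligner, counter and strand setting the sources used here give nothing. The smallest step of each library gave whole reads for 100% of values within a tolerance of 0.01, from 540642 to 2489084 reads per library, so the reads behind each deposited signal value were recovered. Between 17 and 18 rows per table whose gene name had become a date were left out. The 20 ATAC libraries were not used, and 1 RNA library whose labels disagree entered no comparison. Another library, an untreated double mutant by title, has a column name that ends in the word mistake and was kept.

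Groups came from the labels and experiments from the sample descriptions. Genes that reached a value of 5 in a number of libraries equal to the smallest group size were tested with limma 3.58.1 in R 4.3.3 on log2(value + 1), with an experiment term and Benjamini-Hochberg adjustment over all genes tested, and called at an adjusted p under 0.05. Contrasts of LPS-treated Il10ra mutants were fitted and not tested. Alternatives were pseudocounts of 0.5 and 5, no filter, no experiment term, values within an experiment, leaving out each library, a replicate block, and edgeR 4.0.16 and DESeq2 1.42.0 on the recovered reads. Fits were tested on simulated data. Libraries of the same replicate number correlated at 0.13 or more in every pair only for doubly floxed controls at 6 h against untreated, where 5 pairs ran from 0.13 to 0.23. The labels name no pairs, so a pairing is not established. The block changed no call of a member there. The members, gene lists and tests were chosen with earlier results of these data known. Genes named are the 10 members, the targeted genes, up to 4 genes of lowest p in each list, and the 10 other genes most alike in profile with a mean of at least 20 in 1 group. Promoter windows of 250 bases and positions come from RefSeq, GRCm38.p6. Counting intervals cover counting error only.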

Additional observations from a re-analysis of the deposited data

Results flagged for a closer look

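In 13 of 159 groups of 4 to 10 libraries, 1 library of a member stood far from the others. Chance marks about 1 group in 20 where groups are independent and values are continuous. Here groups share libraries and some hold mostly values of 0, so the count is not set against that rate. In doubly floxed controls at 48 h replicate 2 was the lowest library for 6 members and stood far below the others for 3 of them, with Tmem44 at 55.3 (others 77.1 to 85.6), Crybb1 at 407 (others 796 to 1114) and Lst1 at 158.3 (others 290 to 390.4). Ccr6 was at 5.65 in untreated doubly floxed replicate 5 (others 159 to 337) and at 0.528 in doubly floxed replicate 2 at 6 h (others 9.91 to 17.5). In double mutants at 6 h replicate 5 was the highest for Tmem44, at 23.1 (others 13.1 to 15.8), and for Duoxa1, at 3.09 (others 0). In Il10ra mutants at 24 h replicate 1 was the lowest for Crybb1, at 74.5 (others 177 to 221), and Upk1b, at 5.52 (others 24.4 to 34.3), and replicate 4 had Ly6g6e at 0 (others 0.920 to 1.16). In Il10ra mutants at 48 h replicate 1 had Ly6g6e at 2.04 and the others 0. Untreated Il10ra mutant replicate 2 was the lowest for Hacd4, at 17.3 (others 30.8 to 47.5), and the highest for Crybb1, at 2509 (others 1302 to 1665).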

How the results depend on the processing

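No member that was called, either in the reported fit or under an alternative, changed direction between them. Of 2580 alternative values of single members 6.05% changed sign, all of them not called in either fit, such as Eps8l1 in doubly floxed controls at 48 h (log2 -0.98, and 0.97 within 1 experiment). Of the counts of members called, that at day 7 in controls went from 0 to 1 with a pseudocount of 5, with edgeR and with DESeq2, that in controls at 48 h from 4 to 8 within 1 experiment, and that in double mutants against doubly floxed controls at 6 h from 0 to 1 with DESeq2, and the cause was not tested. Calls over all genes in controls at 48 h went from 2108 to 3106 within that experiment. Leaving out each library in turn gave 9 to 10 members in controls at 6 h, 8 to 9 at 24 h, 2 to 4 at 48 h and 0 at day 7, 9 to 10 in doubly floxed controls at 6 h, 3 to 4 at 48 h, and 0 to 1 between double mutants and doubly floxed controls at 6 h. With the replicate block the counts were 10, 9, 6 and 0 in controls at 6, 24, 48 h and day 7, 10 and 4 in doubly floxed controls, 9 and 3 in double mutants, and 0 in each genotype comparison. At 48 h in controls the block added Eps8l1 (log2 -1.22, adjusted p = 0.0376) and Lst1 (log2 -0.87, adjusted p = 0.0273). Over all 11103 genes it called 5609, 3439, 2651 and 320 in controls at these times, against 4605, 3244, 2108 and 455 in the main fit. The labels name no pairs, so the libraries are known to share only a replicate number.

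Among single members, edgeR and DESeq2 called Ccr6 lower in doubly floxed controls at 48 h (log2 -2.23, adjusted p = 0.000468 and 0.00398), and DESeq2 did not call Crybb1 in controls at 48 h (log2 -1.04, adjusted p = 0.0765). Without the experiment term Ccr6 was called in controls at 24 h (log2 -1.34, adjusted p = 0.0263). Over all genes, calls in controls went from 4605 to 3061 at 6 h and from 3244 to 1761 at 24 h within 1 experiment, from 2108 to 1390 at 48 h without untreated replicate 4, and from 455 to 231 and 302 at day 7 without replicate 1 or 2. They went from 2785 to 1854 in doubly floxed controls and from 2130 to 953 in double mutants at 48 h within 1 experiment. Between untreated Il10ra mutants and controls calls went from 1 to 2 without the experiment term, with edgeR and with DESeq2, and to 3 without mutant replicate 1. Between double mutants and doubly floxed controls they went from 3 to 7 untreated without double mutant replicate 2, and at 6 h from 8 (0.0678% of genes) to 17 with edgeR, 13 with a pseudocount of 5 or within 1 experiment and 4 without the experiment term or with the block, to 0.958% of genes with DESeq2, and to between 0.0424% and 0.915% without single libraries, the highest without double mutant replicate 3. Depth limits Ly6g6e, Duoxa1 and Ccr6 most, whose lowest groups held few or 0 reads.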

Other observations

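One library of the double mutant table was titled as a doubly floxed control at 48 h and described as a double mutant. Its column name gives a control at 48 h and ends in the word mistake, and it entered no comparison. At 48 h doubly floxed controls ran from 315 to 470 for Il10ra and from 71.5 to 246 for Tnf. Double mutants ran from 13.2 to 76.4 and from 4.39 to 9.27. The library left out had 467 normalised reads of Il10ra and 266 of Tnf, and its genotype was not tested. Its members were at 25.8 for Hacd4, 38.6 for Tmem44, 270.4 for Cryba4, 536.5 for Crybb1, 27.0 for Ly6g6e, 166 for Lst1, 17.8 for Ccr6, 7.97 for Upk1b, 41.7 for Eps8l1 and 2.45 for Duoxa1.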
